A study of Arabidopsis thaliana with 12 samples.

Results

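The genes described here encode proteins of the cytosolic ribosome of Arabidopsis thaliana. A list of 53 locus codes on chromosomes 1 and 2 defined them, and a gene was kept when a probe set of the array was paired with that gene and no other. This left 35 of the 53 genes, out of 16550 genes tested in all. The other 18 had no probe set of their own and were not analysed here. Of the 35 genes, 11 encode proteins of the small subunit, 20 encode proteins of the large subunit and 4 encode proteins of the large-subunit stalk. The platform annotation gives a symbol to 1 of them (PGY1) and a locus code to the others, so the protein names used below (RPS for the small subunit, RPL for the large, RPP for the acidic stalk) are those of standard Arabidopsis nomenclature.

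The cytosolic ribosome translates nuclear-encoded messages. Its small subunit reads the messenger RNA, its large subunit joins the amino acids, and a flexible stalk on the large subunit recruits the elongation factors. In Arabidopsis each ribosomal protein is encoded by a small family of near-identical genes, and their transcripts are known to be abundant in dividing and growing tissue, where demand for new ribosomes is high. Ribosomal protein transcripts are therefore often read as a measure of growth.

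The 12 arrays came from seedlings that all carry CLE2, a gene for a small secreted signalling peptide, under an estradiol-inducible system. Seedlings grew on half-strength Murashige and Skoog medium at 22 °C in continuous white light, and were 7 days old when their roots received β-estradiol, labelled as 5 mM, or the solvent DMSO for 24 h. Roots and shoots were then collected separately, and the sample titles give organ and treatment (the protocol text names estradiol for all 12), giving 3 arrays for each organ and treatment, called DMSO roots, DMSO shoots, estradiol roots and estradiol shoots below. The series asked which genes act downstream of CLE2. The DMSO controls carry the inducible gene too, and no seedlings without it were given estradiol, so effects of estradiol and of CLE2 cannot be told apart. The labels give neither the promoter of the system, nor the number of transgenic lines, nor how many seedlings were pooled, and they are silent on whether replicates grew as separate cultures. The p-values therefore reflect the spread among arrays of a group, and that spread may be technical.

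All values are log2 signals as the authors deposited them, 1 per probe set and array. Within a group the lowest correlation between arrays was 0.986, and between organs the highest was 0.870. The organ labels were checked on marker genes: all 4 measured photosynthesis genes were higher in DMSO shoots and all 4 measured root markers were higher in DMSO roots, with median root minus shoot differences of -2.79 and 3.14 log2 units. CLE2 has no probe set paired with it here, so its induction was not analysed. DMSO root replicate 3 stood apart: the median of 26 shoot-enriched genes, chosen on the estradiol arrays alone, was 4.64 there against 3.74 and 3.83 on the other DMSO root arrays, and the part of this in the results below was not tested. Without that array the counts of called ribosomal protein genes between DMSO organs were the same within 1, and AT1G48830 was not called. Probe sequences were not used here, so signal that near-identical family members may share could not be separated.

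The ribosomal protein genes had nearly the same signal in roots and in shoots. Between DMSO roots and DMSO shoots, 2 of the 35 were higher in roots and 3 were lower (limma, Benjamini-Hochberg adjusted p under 0.05 over all genes). Of all genes tested, 26.6% were higher and 25.8% lower in roots, 52.5% in either direction. Only 1 gene was higher in roots without DMSO root replicate 2, DMSO shoot replicate 1 or DMSO shoot replicate 3, and 2 genes were lower without some of the arrays. None of the 35 differed 2-fold, whereas 21.8% of all genes did with an adjusted p under 0.05. The median absolute difference was 0.09 log2 units over the 35 genes, 0.43 over all genes, and 0.48 over the 403 genes with a mean log2 signal above 10. That set is not matched to the 35 in level and holds some of them. Most of the 35 are dimmer, with a median level of 7.91 against 10.64. Their median residual SD was 0.113 against 0.0771. In bulk tissue, fewer cells of a type and less RNA per cell cannot be told apart.

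**Figure D1:**
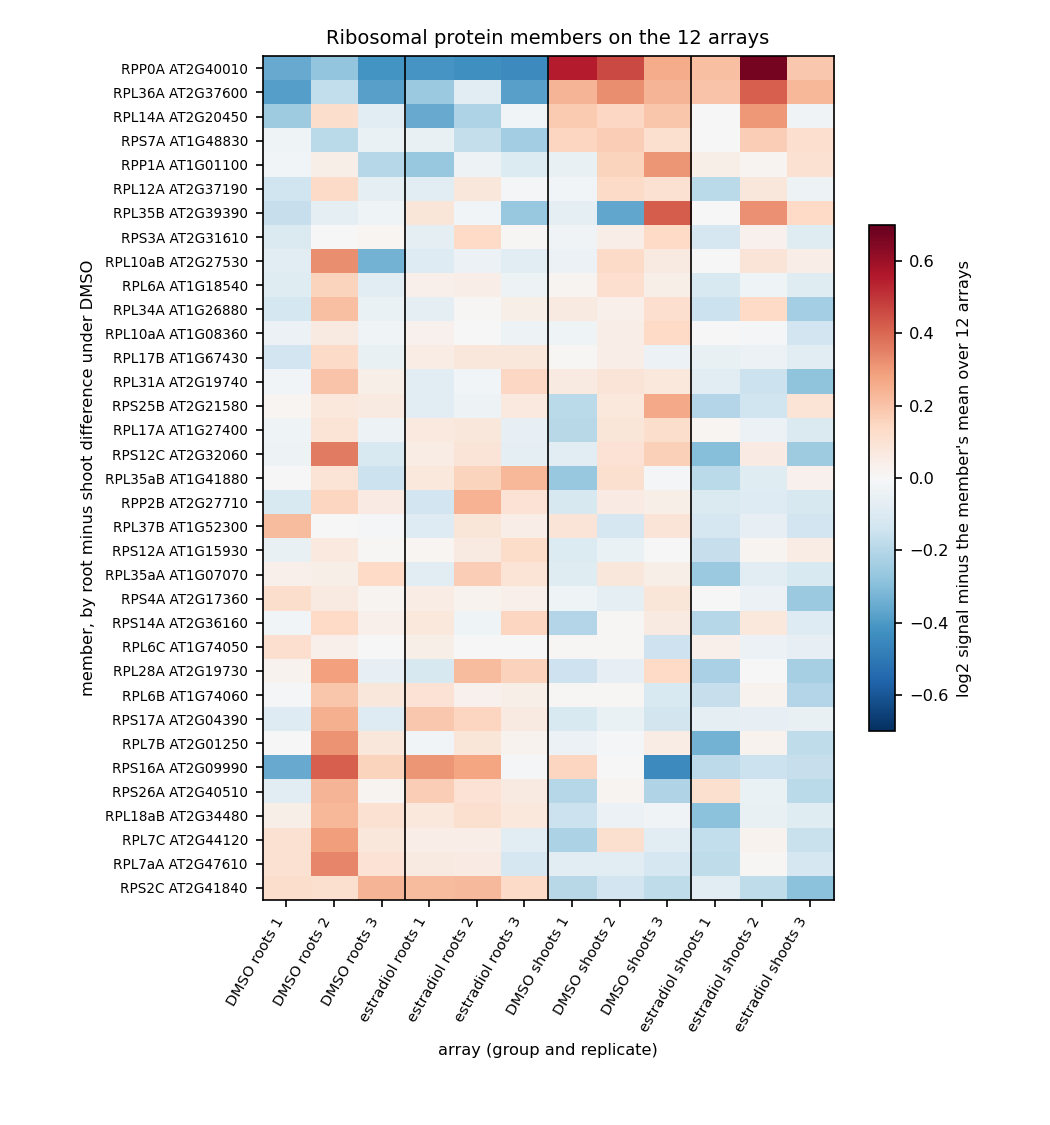
Each row is 1 of the 35 ribosomal protein genes and each column 1 of the 12 arrays; colour gives the log2 signal minus that gene's mean over the 12 arrays. Rows are ordered by the root minus shoot difference under DMSO: RPP0A and RPL36A at the top are blue in all 6 root columns and red in all 6 shoot columns, RPS2C at the bottom is the reverse, and the column of DMSO root replicate 2 is red in most rows.

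The size of the remaining spread limits what these arrays could miss. For 28 of the 35 genes the root minus shoot difference lay between -0.2 and 0.2 log2 units, against 25.3% of all genes and 22.6% of genes with a mean above 10. The 95% interval of the difference, taken gene by gene and not adjusted, lay within 0.5 log2 units of 0 for 30 of the 35 genes and for 20.5% of all genes. It lay within 1 log2 unit, or 2-fold, for 34 of the 35. The exception was AT2G40010, whose interval reached -1.06.

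The stalk gene AT2G40010 (RPP0A) showed the largest organ difference of the 35. It encodes protein P0, which anchors the dimers of the acidic proteins P1 and P2 to the large subunit. For replicates 1, 2 and 3 in turn, its log2 signal was 8.24, 8.32 and 8.17 in DMSO roots and 9.14, 9.05 and 8.85 in DMSO shoots. All shoot values lay above all root values, and the root minus shoot difference was -0.77 ± 0.13 (SE, limma adjusted p = 0.000369), 1.71-fold. On the estradiol arrays the values were 8.18, 8.16 and 8.15 in roots and 8.80, 9.26 and 8.78 in shoots, again without overlap. A dimmer probe set of this gene, with a mean signal of 3.65 against 8.59, had a root minus shoot difference of -0.231 under DMSO. The other stalk genes did not pass the test: AT1G01100 (RPP1A), for an acidic P1 protein, had a difference of -0.20 ± 0.11, AT2G27710 (RPP2B), for its P2 partner, 0.04 ± 0.11, and AT2G37190 (RPL12A), for the protein at the stalk base, -0.10 ± 0.10 (SE).

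In the large subunit, 1 of 20 genes was higher in shoots and 1 in roots. AT2G37600 (RPL36A), which encodes ribosomal protein L36, read 6.09, 6.31 and 6.10 in DMSO roots and 6.71, 6.80 and 6.72 in DMSO shoots. Its estradiol values were 6.22, 6.40 and 6.10 in roots and 6.67, 6.90 and 6.71 in shoots. The organs did not overlap under either treatment, and the DMSO difference was -0.58 ± 0.11 (SE, limma adjusted p = 0.000722), or 1.49-fold higher in shoots. AT2G47610 (RPL7aA), for ribosomal protein L7a, read 10.56, 10.80 and 10.56 in DMSO roots and 10.38, 10.38 and 10.34 in DMSO shoots. That difference of 0.27 ± 0.10 (limma adjusted p = 0.0358) was carried partly by root replicate 2, without which it was 0.19 (limma adjusted p = 0.130), and the call was also lost without any 1 of the DMSO shoot arrays (limma adjusted p from 0.0652 to 0.0884). Under estradiol the same gene read 10.52, 10.51 and 10.34 in roots and 10.28, 10.47 and 10.34 in shoots, which overlap.

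In the small subunit, 1 of 11 genes was higher in roots and 1 in shoots. AT2G41840 (RPS2C) encodes S2, a protein at the messenger RNA entry site that bears on the accuracy of decoding. It read 10.76, 10.75 and 10.87 in DMSO roots and 10.45, 10.50 and 10.46 in DMSO shoots, then 10.86, 10.86 and 10.77 in estradiol roots and 10.56, 10.46 and 10.35 in estradiol shoots. Roots were above shoots on every array under both treatments, by 0.33 ± 0.08 log2 units under DMSO (SE, limma adjusted p = 0.00616) and by 0.38 ± 0.08 under estradiol (limma adjusted p = 0.00250). AT1G48830 (RPS7A), for ribosomal protein S7, read 10.30, 10.14 and 10.28 in DMSO roots and 10.48, 10.50 and 10.44 in DMSO shoots. Its estradiol values were 10.28, 10.16 and 10.09 in roots and 10.33, 10.50 and 10.45 in shoots. Shoots were higher by 1.18-fold under DMSO, a difference of -0.23 ± 0.09 that was called narrowly (limma adjusted p = 0.0432) and was not called after quantile normalization (-0.155, limma adjusted p = 0.186) or once array medians were subtracted (-0.205, limma adjusted p = 0.0744). Leaving out single arrays gave adjusted p-values from 0.0424 to 0.134 (limma), the highest without DMSO root replicate 2.

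**Figure D2:**
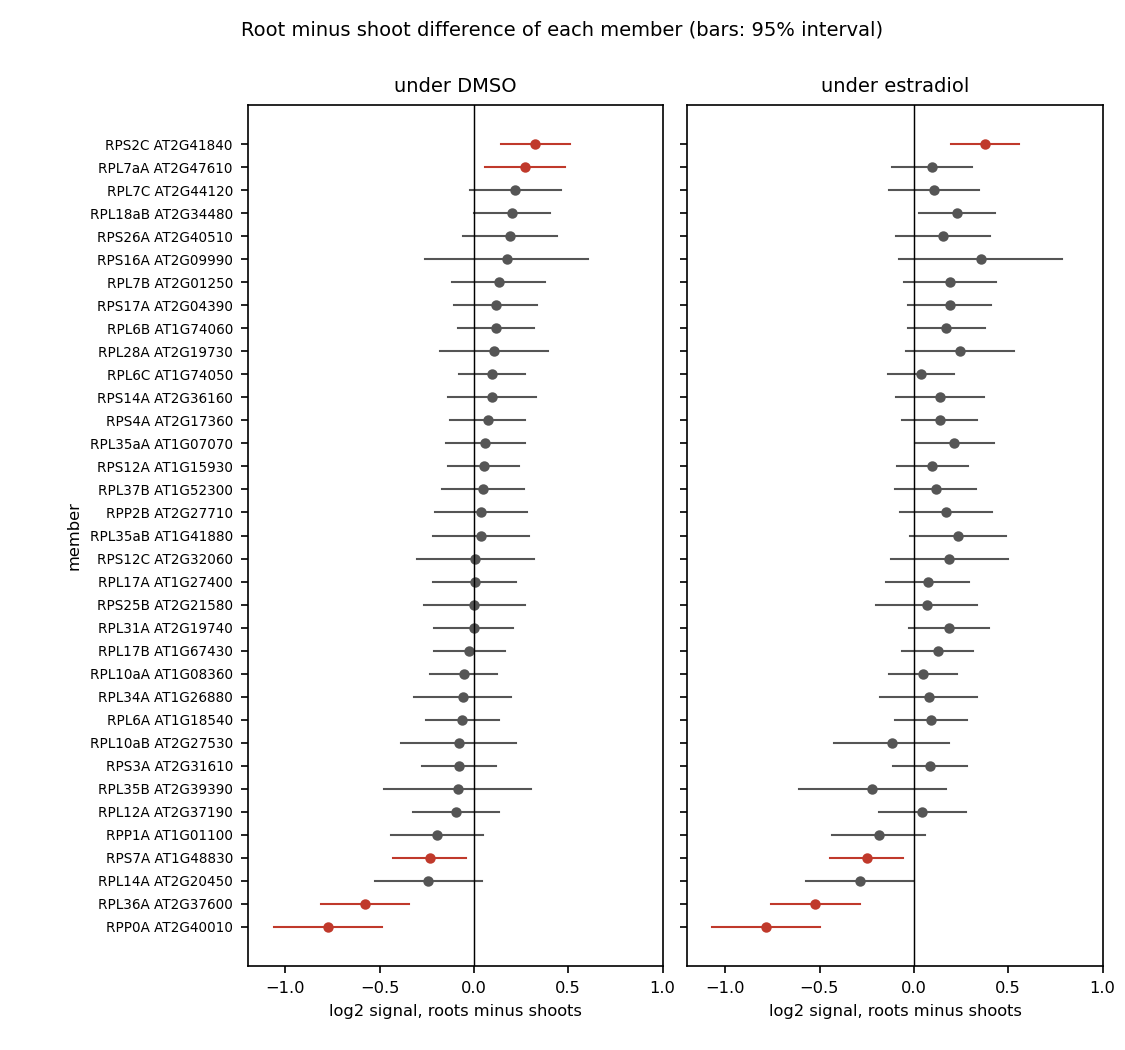
Points give the root minus shoot difference in log2 signal of each of the 35 genes under DMSO (left) and under estradiol (right), with 95% intervals as bars and called genes in red. Most intervals straddle 0; RPP0A and RPL36A lie to the left of 0 and RPS2C to the right in both panels.

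The organs were also compared on the estradiol arrays, which share no array with the DMSO comparison. There, 1 gene was higher and 3 were lower in roots, against 26.5% and 26.0% of all genes, and 4 of the 5 genes called under DMSO were called again in the same direction, as were 7343 of the 8685 genes called in all. Both comparisons take each gene's spread from the same fit over 12 arrays. RPL7aA was the gene not called again. With the replicate number as a block over the 12 arrays, 3 genes were higher and 3 lower, and with trended and robust variance 4 and 4. The split was 4 higher and 2 lower after quantile normalization, which moved the median root minus shoot difference of all genes by 0.0987 under estradiol and 0.100 under DMSO, where the split went from 2 and 3 to 3 and 2. The median over the 35 genes was 0.04 log2 units under DMSO and 0.11 under estradiol, against -0.09 over all genes in both. Under estradiol 28 of the 35 genes, or 80%, had a difference above 0, against 43.8% of all genes. The share was 66.5% among genes with a mean above 10 and 60.6% among the 109 other cytosolic ribosomal protein genes described below. Under DMSO 21 of the 35, or 60%, were above 0, against 44% of all genes. In the same order the other sets stood at 64% and 58.7%. The estradiol count rests on the same estradiol shoot arrays as the shoot estradiol differences given below.

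Other genes of translation and growth are given for comparison. Beside their counts stand the shares over all genes: 52.5% were called between DMSO organs, and 25.8% were called lower in roots. A further 167 cytosolic ribosomal protein genes were listed apart from the 35, and 109 were measured: 10 were higher and 6 lower in DMSO roots, or 14.7%, close to the 14.3% of the 35 genes, and none differed 2-fold. The smallest p belonged to AT5G39850, a gene for S9, at 0.57 ± 0.10 (SE), and 0.66 on the estradiol arrays. AT2G39590, a gene for S15a with a dim signal of 2.49 in DMSO roots, was at -0.73 ± 0.15, but at -0.19 on the estradiol arrays. AT1G15250, a gene for L37, was at -0.63 ± 0.13 and at -0.62 on the estradiol arrays. Plastid ribosomal proteins, which serve translation in the chloroplast, gave a contrast: all 4 measured of 25 listed were higher in shoots, with a median of -2.83, among them AT4G01310, for plastid L5, at -3.13, and AT1G64510, for plastid S6, at -2.72. Of 9 measured ribosome assembly genes among 29 listed, only AT2G40360, which encodes the assembly factor BOP1, was called, at 0.36 in roots (limma adjusted p = 0.0134). Translation factor genes were called for 4 of 6 measured among 27 listed, with AT5G12110 and AT2G18110, both for subunits of the elongation factor that recharges eEF1A, at -1.04 and 0.69. Both measured cell division genes of 16 listed were higher in shoots: PRL, a replication licensing gene, by a root minus shoot difference of -0.80, and AUR1, a mitotic kinase gene, by -0.73. The 5 listed genes of the TOR pathway were not analysed here.

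**Figure D3:**
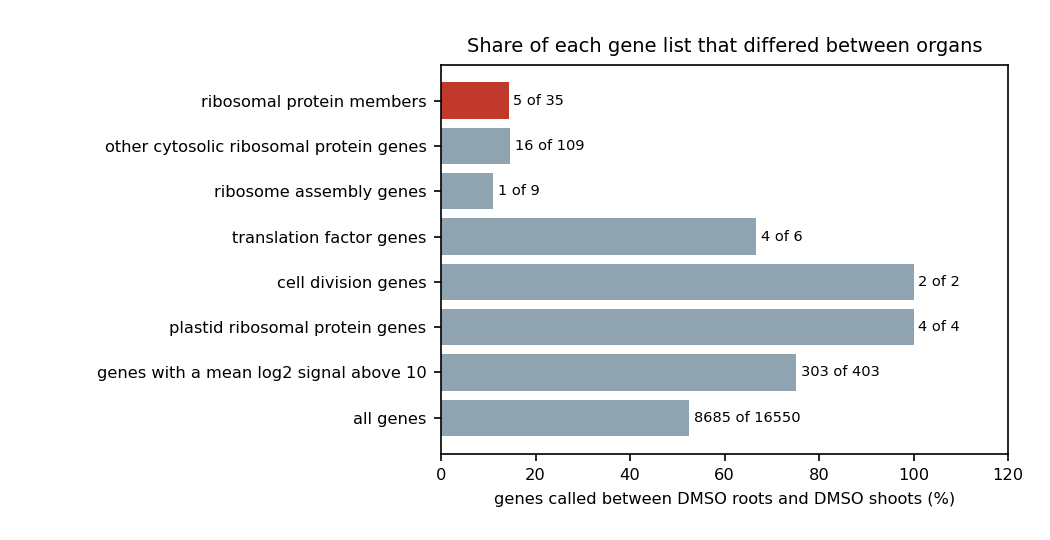
Bars give the share of each gene list called between DMSO roots and DMSO shoots, in percent, with the called and the measured number of genes beside each bar. The ribosomal protein genes, at 5 of 35, sit near the other cytosolic ribosomal protein genes, at 16 of 109, and below all genes, at 8685 of 16550.

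Relatives within a family are given side by side; differences between relatives were not tested. All 5 genes called between DMSO organs have measured relatives outside the 35. RPP0A, at -0.77, has the measured relatives AT3G09200 and AT3G11250, also for P0, at 0.14 ± 0.08 and 0.26 ± 0.24 between DMSO organs (SE). RPL36A, at -0.58, has AT3G53740 and AT5G02450, also for L36, at 0.09 ± 0.10 and -0.02 ± 0.08. RPS7A, at -0.23, has AT3G02560 and AT5G16130, also for S7, at 0.11 ± 0.10 and 0.03 ± 0.10. RPS2C, at 0.33, has AT1G58380 and AT3G57490, also for S2, at 0.03 ± 0.20 and 0.11 ± 0.15, and RPL7aA, at 0.27, has AT3G62870, also for L7a, at 0.01 ± 0.10. None of these 9 relatives was called between DMSO organs. The 35 genes themselves hold 6 families with at least 2 measured members, 13 genes in all. RPL10aA (AT1G08360) and RPL10aB (PGY1), for the protein of the mobile L1 stalk that releases spent transfer RNA, had root minus shoot differences of -0.05 and -0.08 under DMSO. PGY1 is known from mutants with altered leaf polarity. RPL17A (AT1G27400) and RPL17B (AT1G67430), for a protein that lines the exit tunnel, were at 0.00 and -0.02, and RPL35aA (AT1G07070) and RPL35aB (AT1G41880) at 0.06 and 0.04. The pair for S12, RPS12A (AT1G15930) and RPS12C (AT2G32060), was at 0.05 and 0.01. RPL6A (AT1G18540), RPL6B (AT1G74060) and RPL6C (AT1G74050) were at -0.06, 0.12 and 0.10, and RPL7B (AT2G01250) and RPL7C (AT2G44120) at 0.13 and 0.22. None of these 13 genes was called between DMSO organs.

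The signal of the probe sets spanned most of the array's range, and such signals do not rank transcripts of different genes. Of the 35 genes, 33 lay above the median gene of 5.26 and 16 above the 90th percentile. The 3 brightest were AT2G34480 (RPL18aB), RPL17B and RPS2C. RPL18aB read 11.58, 11.77 and 11.64 in DMSO roots and 11.61, 11.65 and 11.61 with estradiol, while shoots read 11.39, 11.49 and 11.51 with DMSO and 11.25, 11.48 and 11.45 with estradiol. Its DMSO organs did not overlap, with roots above shoots, but the difference of 0.20 ± 0.09 (SE) missed the threshold (limma adjusted p = 0.0886). AT2G20450 (RPL14A), a large-subunit gene, was the reverse: it read 8.90, 9.27 and 9.07 in DMSO roots and 9.33, 9.29 and 9.34 in DMSO shoots, a difference of -0.24 ± 0.13 that also missed the threshold (limma adjusted p = 0.138). Among the 35 genes, 7 had non-overlapping DMSO organ groups, 3 with roots above and 4 with roots below, against 59.8% of all genes. Under estradiol 13 did, 8 with roots above and 5 below, against 60.4% of all genes.

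At the dim end, AT2G09990 (RPS16A), for a protein whose tail contacts transfer RNA, read 2.62, 3.39 and 3.13 in DMSO roots and 3.28, 3.25 and 2.96 with estradiol, while shoots read 3.12, 2.97 and 2.53 with DMSO and 2.79, 2.83 and 2.81 with estradiol. RPL12A read 4.88, 5.16 and 4.96, then 4.94, 5.10 and 5.01, then 5.00, 5.15 and 5.13, then 4.83, 5.10 and 4.99 in the same order of groups. AT2G39390 (RPL35B), for a protein at the mouth of the exit tunnel, read 5.27, 5.36 and 5.40, then 5.51, 5.41 and 5.16, then 5.36, 5.07 and 5.85, then 5.43, 5.74 and 5.57. The groups of all 3 genes overlap across organs under DMSO. RPS14A (AT2G36160) and RPS26A (AT2G40510), for proteins near the messenger RNA exit channel, had root minus shoot differences of 0.10 ± 0.11 and 0.19 ± 0.11 under DMSO (SE). The genes RPS4A (AT2G17360), RPS25B (AT2G21580), RPL28A (AT2G19730), RPL34A (AT1G26880) and RPL37B (AT1G52300) lay between -0.06 and 0.11, with none called.

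None of the ribosomal protein genes passed the test after 24 h of estradiol in either organ. In roots, 0 of 35 were called (limma; 0% of all genes were), 0 had an unadjusted p under 0.05, against 5.17% of all genes, and the median difference was -0.01 log2 units, the same as over all genes. In shoots, 0 of 35 were called (limma; 0.163% of all genes were) and 1 had an unadjusted p under 0.05, against 9.95%. The test seldom calls small changes: on simulated data, changes of 0.3 log2 units were recovered for 0% of changed genes in roots and 2% in shoots. Those genes were drawn from all genes, whose median residual SD was 0.191 against 0.113 for the 35, so these rates are not specific to the 35. The 95% interval of the estradiol effect, not adjusted, lay within 1 log2 unit of 0, or 2-fold, for all 35 genes in both organs. It lay within 0.5 log2 units of 0 for 34 genes in roots and 33 in shoots, against 57.5% and 52.9% of all genes.

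**Figure D4:**
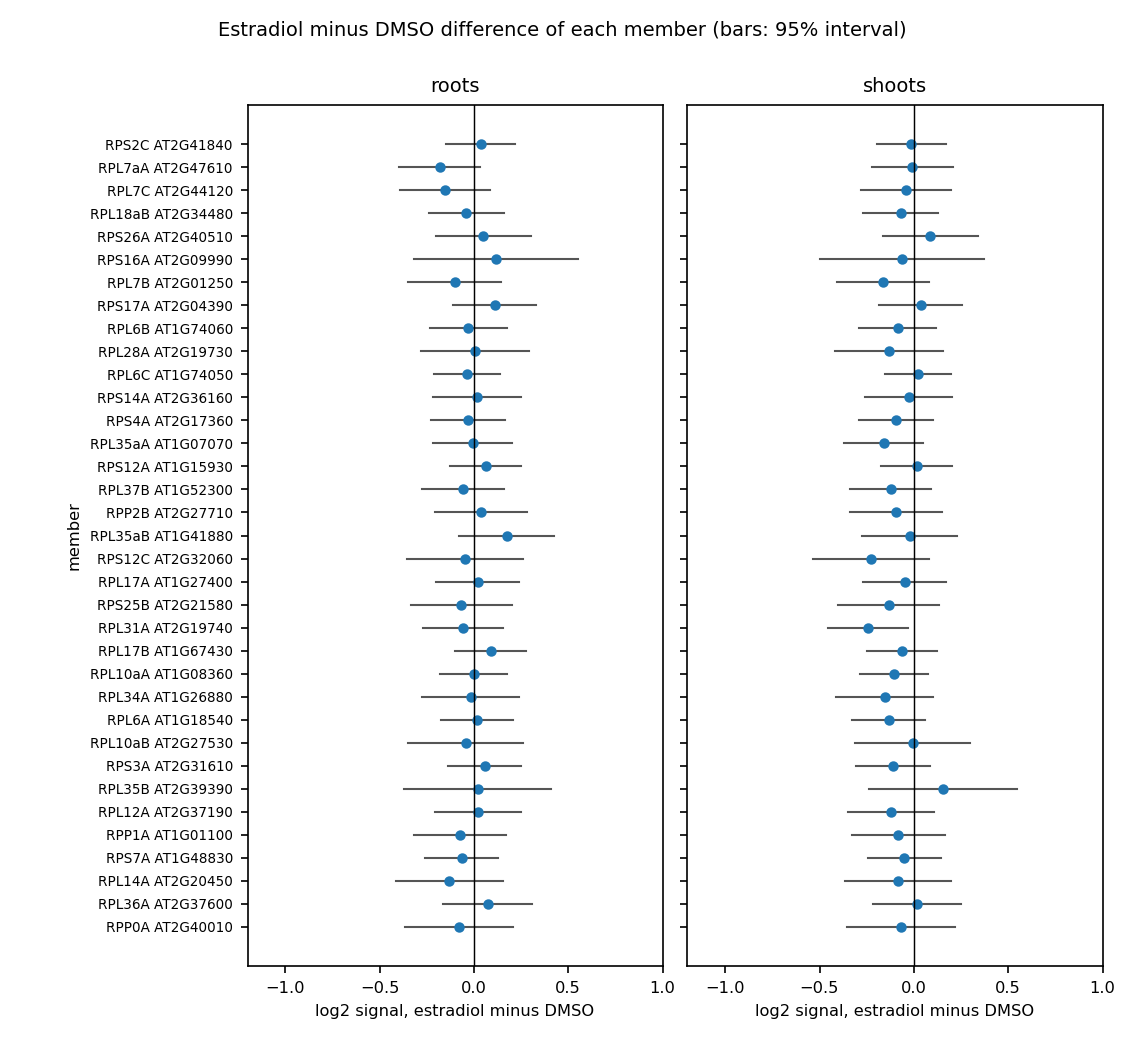
Points give the estradiol minus DMSO difference in log2 signal of each of the 35 genes in roots (left) and shoots (right), with 95% intervals as bars. All intervals lie inside 1 log2 unit on either side of 0, and more points lie left of 0 in shoots than in roots.

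The 5 genes with the smallest p in roots are given as values. RPL7aA, listed above, had a mean of 10.64 ± 0.14 with DMSO and 10.46 ± 0.10 with estradiol (SD, n = 3), a difference of -0.18 with a 95% interval from -0.39 to 0.03, which was -0.10 without DMSO root replicate 2. RPL35aB read 7.19, 7.28 and 7.04 in DMSO roots and 7.26, 7.35 and 7.42 in estradiol roots, which overlap, and 6.92, 7.30 and 7.17 against 7.00, 7.10 and 7.22 in shoots. RPL7C read 8.02, 8.21 and 8.0 in DMSO roots and 7.97, 7.96 and 7.84 in estradiol roots. All 3 estradiol root values of RPL7C lay below the DMSO values, and in shoots it read 7.69, 8.03 and 7.84 with DMSO and 7.74, 7.94 and 7.76 with estradiol. AT2G04390 (RPS17A), for a small-subunit protein, read 9.87, 10.21 and 9.87 in DMSO roots and 10.15, 10.11 and 10.02 in estradiol roots, with shoot values of 9.85, 9.92 and 9.83 and of 9.89, 9.91 and 9.91. RPL17B read 10.87, 11.14 and 10.96 in DMSO roots and 11.06, 11.09 and 11.09 in estradiol roots, with shoot values of 11.02, 11.06 and 10.97 and of 10.96, 10.97 and 10.93. For both RPS17A and RPL17B, DMSO root replicate 2 was the highest root array. In all, 2 of the 35 genes, RPL7aA and RPL7C, had root groups that did not overlap, both with estradiol below, against 12.3% of all genes and 7.05% with estradiol below.

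In shoots, 29 of the 35 genes had an estradiol difference below 0, with a median of -0.07 log2 units, where 50.8% of all genes were below 0 and their median was -0.00. The count below 0 was 25 after quantile normalization and 16 once each array's median was subtracted. Those scalings move all genes: the median of the 35 was then -0.05 and 0.01, and that of all genes 0.02 and 0.08. After quantile normalization the 35 lay below all genes by a like amount as before. Subtracting an array's median shifts every gene alike, so it cannot change that gap. Among the 109 other cytosolic ribosomal protein genes, 83 were below 0 with a median of -0.08, and 0 were called (limma; 1 had an unadjusted p under 0.05). In roots 70 of the 109 were below 0, with a median of -0.03, and 19 of the 35 were. There 8599 of the 16550 genes in all and 166 of the 403 genes with a mean above 10 were below 0. Of genes with a mean above 10, 35.5% were above 0 in shoots, against 17.1% of the 35. All 9 measured ribosome assembly genes were below 0 in shoots and in roots, with medians of -0.15 and -0.04, and 0 were called (limma; 0 had an unadjusted p under 0.05).

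Single genes in shoots showed the same small size. AT2G19740 (RPL31A), for a protein near the exit of the tunnel, had the smallest p: it read 7.03, 7.05 and 7.03 in DMSO shoots and 6.89, 6.81 and 6.68 in estradiol shoots, without overlap, a difference of -0.24 ± 0.10 (SE, limma adjusted p = 0.445). In roots it read 6.94, 7.16 and 7.00 with DMSO and 6.89, 6.94 and 7.11 with estradiol. RPL35aA read 10.35, 10.51 and 10.47 in DMSO shoots and 10.17, 10.36 and 10.32 in estradiol shoots, with root values of 10.47, 10.47 and 10.57 and of 10.36, 10.60 and 10.53. These groups overlap, as do those of RPS12C, which read 5.81, 5.99 and 6.05 in DMSO shoots and 5.59, 5.94 and 5.64 in estradiol shoots, and 5.85, 6.25 and 5.77 against 5.94, 5.97 and 5.82 in roots. RPL6A read 8.66, 8.76 and 8.68 in DMSO shoots and 8.54, 8.61 and 8.56 in estradiol shoots, with root values of 8.56, 8.80 and 8.57 and of 8.68, 8.69 and 8.61. RPL7B read 10.20, 10.23 and 10.28 in DMSO shoots and 9.90, 10.26 and 10.06 in estradiol shoots, with root values of 10.23, 10.55 and 10.32 and of 10.22, 10.32 and 10.26. Of these 5 genes, RPL31A and RPL6A had shoot groups that did not overlap, and 3 of the 35 had such groups, all with estradiol below, against 13.2% of all genes and 6.37% with estradiol below.

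The estradiol effect was also compared between the organs. The test of the difference called 0 of 35 genes (limma; 0% of all genes were called), and 0 had an unadjusted p under 0.05, against 5.41% of all genes. The smallest p belonged to RPL31A, with a root effect minus shoot effect of 0.19 ± 0.14 (SE). AT2G31610 (RPS3A), for a protein of the messenger RNA entry channel, was at 0.17 ± 0.13; it read 8.46, 8.57 and 8.58 in DMSO roots and 8.50, 8.70 and 8.57 with estradiol, while shoots read 8.54, 8.61 and 8.70 with DMSO and 8.44, 8.59 and 8.48 with estradiol. RPL7aA was at -0.17 ± 0.14 (SE), and between -0.21 and -0.09 when single arrays were left out, nearest to 0 without DMSO root replicate 2. The 95% interval of the difference between effects lay within 1 log2 unit of 0 for all 35 genes.

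The ribosomal protein genes moved together from array to array within a group. On the replicate 2 array of each of the 4 groups, more of the 35 genes lay above their group mean than on the other arrays of that group: 29 in DMSO roots, 25 in estradiol roots, 25 in DMSO shoots and 30 in estradiol shoots. On replicate 1 the counts were 6, 17, 9 and 9. The median deviation ran from -0.07 on DMSO root replicate 1 to 0.11 on DMSO root replicate 2. For replicates 1, 2 and 3 in turn it was -0.05, 0.04 and 0.03 in DMSO shoots. In estradiol shoots it was -0.07, 0.06 and -0.02, beside a median estradiol difference of -0.07 in shoots. These are deviations of single arrays and not the error of a difference between group means. For every replicate number, the median signal of the 35 genes was lower in estradiol shoots than in DMSO shoots. In order of replicate number it was 7.74 against 7.78, 7.93 against 8.03 and 7.76 against 7.84. Ignoring number, the shoot groups overlap. In roots the median signal was 7.66 with estradiol against 7.90 with DMSO, 7.88 against 7.96 and 7.82 against 7.71. The mean of these medians was 7.85 with DMSO and 7.78 with estradiol in roots, and 7.89 and 7.81 in shoots. Yet the median of the 35 root differences was only -0.01. Each array's median is the value of 1 gene, which can differ between arrays. Whether equal numbers mark paired arrays is not stated, and the order of these medians was not tested. The 109 other cytosolic ribosomal protein genes were also high on the replicate 2 arrays, with 76.1%, 72.5%, 74.3% and 81.7% above the group mean. On those arrays the shares over all genes were between 47.6% and 50.7%. Across the 12 arrays, the median correlation between the deviations of any pair of the 35 genes was 0.303; it was 0.286 among the 109 and 0.0113 among the 403 genes with a mean above 10. These correlations share arrays and scaling and are descriptions only. Because the genes move together, a count of genes on 1 side of 0 is not a count of independent observations.

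**Figure D5:**
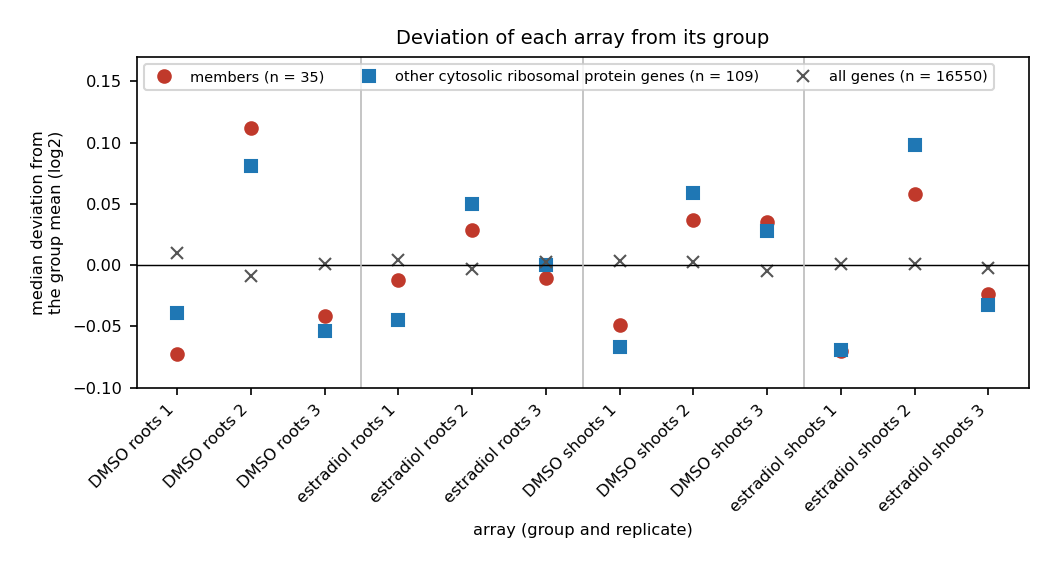
Points give, for each of the 12 arrays, the median deviation from the group mean in log2 signal over the 35 ribosomal protein genes, the 109 other cytosolic ribosomal protein genes and all genes. Both ribosomal sets are highest on the replicate 2 array of every group, while all genes stay near 0.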

How the data were processed

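Values were the authors' deposited log2 signals of Affymetrix arrays. Per the submitters' processing notes, the software was Expression Console 1.3 of Affymetrix. How it summarized and normalized the probes is not given in the sources, and the values were not scaled again. The platform annotation pairs 16722 of 38408 probe sets with a single gene, 759 with more than 1 and leaves 20927 unnamed here. The probe set with the highest mean stood for each of 16550 genes. A model with 4 group means was fitted to all 12 arrays with limma 3.58.1 (R 4.3.3; lmFit and eBayes), with Benjamini-Hochberg adjustment over all genes and a threshold of 0.05. Replicate numbers were not used as a block, since deviations of same-numbered arrays from their group means correlated by 0.0183 to 0.137, not all above 0.1. All were positive, however. Without a block, a shift shared by same-numbered arrays stays in the spread that the test uses. The number of arrays limits precision. The fit was tested on simulated data with 50 genes changed at each of 4 sizes. They were drawn from all genes, which had a larger median residual SD (0.191) than the 35 (0.113). Recovery at the spread of the 35 was not simulated. At 0.3 log2 units it recovered 0% of them for estradiol in roots and 2% in shoots, and at 0.6 it recovered 38% and 40%. At 1 log2 unit it recovered 72% and 78%, and at 1.5 it recovered 98% and 100%. The largest estradiol difference of a ribosomal protein gene was -0.24, in shoots. Changes of that size would thus rarely be called, and their absence from the calls does not exclude them.

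The genes and the lists were chosen with earlier results of these data known. Named genes were those called between DMSO organs, the 5 with the smallest p in each estradiol comparison, the 3 with the smallest p for the difference between organs, and the 3 brightest and 3 dimmest; other genes named, and the set of genes with a mean above 10, were picked after their values were seen. Alternatives were array weights, trended and robust variance, quantile and median scaling, low-signal filters, an added constant, the replicate block, separate fits per organ and leaving out each array.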

Additional observations from a re-analysis of the deposited data

How the results depend on the processing

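Under every alternative run, 0 of the 35 genes were called for estradiol in roots, in shoots or for the difference between organs, and no called difference changed sign. The number called higher in estradiol roots than in estradiol shoots was 1 as reported, 3 with the replicate block over 12 arrays, 4 with trended and robust variance, 2 with array weights, 4 after quantile normalization, 3 among genes above the median signal and 3 with 16 added before log2. The median estradiol difference in shoots was 0.012 after array medians were subtracted, a scaling that moved the median of all genes to 0.0789. Leaving out each array gave 1 to 2 genes called higher and 2 to 3 called lower between organs under either treatment. The medians then ran from -0.03 to 0.03 for estradiol in roots, -0.11 to -0.05 in shoots, 0.03 to 0.12 for their difference, -0.02 to 0.06 between DMSO organs and 0.07 to 0.15 between estradiol organs. RPP0A, RPL36A and RPS2C were called between DMSO organs under every alternative. RPS7A was not called with the replicate block (limma adjusted p = 0.0575), with array weights (0.0523), after quantile normalization (0.186) or with array medians subtracted (0.0744). With the block over 12 arrays, 36 genes of all rose and 3 fell in estradiol shoots, and within each organ 18 and 2, against 22 and 5. With the organs fitted apart, 0 rose and 0 fell there. Each of the 12 arrays correlated best, outside its group, with an array of its own number, a hint from the data and not the design. The causes of these changes were not tested. The search of promoters for motifs was not run.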
